A study of Homo sapiens with 6 samples.

Results

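The genes described here are 33 genes of protein folding in the endoplasmic reticulum (ER) and of the unfolded protein response (UPR), chosen by symbol from the 62710 genes of the deposited count table. Of these, 32 had enough counts to be tested, and DERL3 did not. Gene expression was measured by poly(A)-selected RNA-seq in 6 libraries of A549, an established human lung adenocarcinoma line with a mutated KEAP1. In the PS-MP group (3 libraries) polystyrene microplastics had been in the culture for 48 h at a labelled 20 mg/mL, a dose whose unit nothing else in the labels checks, and the control group (3 libraries) received none. All libraries came from the same line, grown in DMEM with 10% fetal bovine serum. Whether replicate libraries stem from separate cultures is not labelled, and p-values therefore measure only how these libraries vary, which may be technical variation.

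Secreted and membrane proteins enter the ER through the SEC61 channel, are folded by chaperones and disulfide-forming enzymes, and, if they fail to fold, are returned to the cytosol and degraded (ER-associated degradation, ERAD). When unfolded protein builds up, 3 sensors respond. ATF6 is cut in the Golgi and becomes a transcription factor for chaperones, IRE1 (encoded by ERN1) splices XBP1 mRNA and so yields a factor for ERAD and secretory genes, and PERK (EIF2AK3) slows translation and favours ATF4. Raised HSPA5, DNAJB9 and HERPUD1 transcripts are widely used readouts of the response.

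Total counts were 17013293 to 21316451 in the controls and 17541896 to 19119508 in the PS-MP libraries, and the floor of detection, 3 counts, was 0.137 to 0.176 CPM (counts per 1e6, TMM-scaled). All 10 epithelial and KEAP1-related markers of A549 were tested and 0 were called, with summed levels of 20306 to 22255 CPM in the controls and 23813 to 25421 CPM in the PS-MP libraries. Of the leukocyte markers CD3E and MS4A1 had 0 counts in all 6 libraries and PTPRC and CD68 at most 2, and the list summed to 19.6 to 36.5 CPM, nearly all of it CD14. Endothelial markers summed to 0.274 to 1.06 CPM. Fibroblast markers summed to 4.62 to 6.53 CPM in the controls and 7.81 to 10.4 CPM in the PS-MP libraries, where DCN was called higher (adjusted p = 0.0245, edgeR). Replicate 3 stood apart in both groups: its log2 CPM correlated with its own group at 0.984 and 0.985 in the controls and at 0.984 and 0.981 in PS-MP, against 0.994 and 0.992 between the other replicates. A median over 10 mitotic genes, a list written with earlier results known, lay at −2.34, −2.54 and −2.93 in the PS-MP libraries on the log2 scale against −0.24, −0.21 and 0.45 in the controls. The part of these differences in the results below was not tested.

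ER folding and UPR genes were close to their control levels in PS-MP cells, with DNAJB9 and SEC61A1 higher. With p adjusted over all 15458 tested genes (edgeR quasi-likelihood test, Benjamini-Hochberg, threshold 0.05), 2 of the 32 tested members were called, both higher, which is 6.25% of them. Over all tested genes 9.56% were called, 4.91% as higher and 4.65% as lower. Both member calls were higher, so 4.91% is the like share, and the 6.25% of the members, which rests on 2 genes, is near it. In bulk RNA, fewer cells of a kind and less RNA per cell cannot be told apart, here and in every result that follows. DESeq2 called 3 members higher and 0 lower, where it called 5.75% of all genes higher and 5.46% lower. At an unadjusted p under 0.05, edgeR had 8 of the 32 members (HERPUD1, SEC61A1, DNAJC3, SEC61B, DNAJB9, HYOU1, CRELD2 and P4HB), all with higher values in PS-MP. Over all tested genes 24% passed at that level, 12.6% with higher values.

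Most differences were small and had the same sign. The estimated log2 fold change of PS-MP against control was above 0 in 28 of the 32 members and ran from −0.08 (ERO1A) to 0.74 (DNAJB9), with a median of 0.16. Over all tested genes the median was 0.002 and 50.3% lay above 0. The 95% interval lay wholly within 1.5-fold for 28 of the 30 members that were not called (93.3%), against 84.6% of the uncalled genes at least as abundant as the least abundant tested member. HERPUD1 and SEC61B were the exceptions, with upper bounds above 1.5-fold. The 3 PS-MP values all lay above the 3 control values in 11 members (34.4%) and below them in 0. Over all tested genes these shares were 16.6% and 15.4%, and over the 7385 genes of that abundance they were 20.2% and 16.9%. Total counts as the only scaling left 23 members above 0, with a median of 0.09 for the members and −0.06 for all genes.

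The count of members called higher moved with the libraries used, and so did the count over all genes. Scaling by total counts left 1 member, DNAJB9, where 3.46% of all genes were called higher and 5.57% lower. A replicate block left the same gene, at 2.15% of all genes. DNAJB9 was also the only member when replicate 1 or 2 of the controls was left out (2.36% and 2.49% of all genes) or replicate 1 or 2 of PS-MP (2.22% and 2.26%). Leaving out control replicate 3 kept both members (3.36% of all genes), and leaving out PS-MP replicate 3 gave 3, with HERPUD1 added (5.62%). Leaving out replicate 3 of both groups gave 7 higher and 1 lower, at 13.5% and 13.1% of all genes. The 7 were DNAJB9, SEC61A1, HERPUD1, DERL2, DNAJB11, EDEM1 and SEC61B, and the lower gene was ERO1B.

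**Figure D1:**
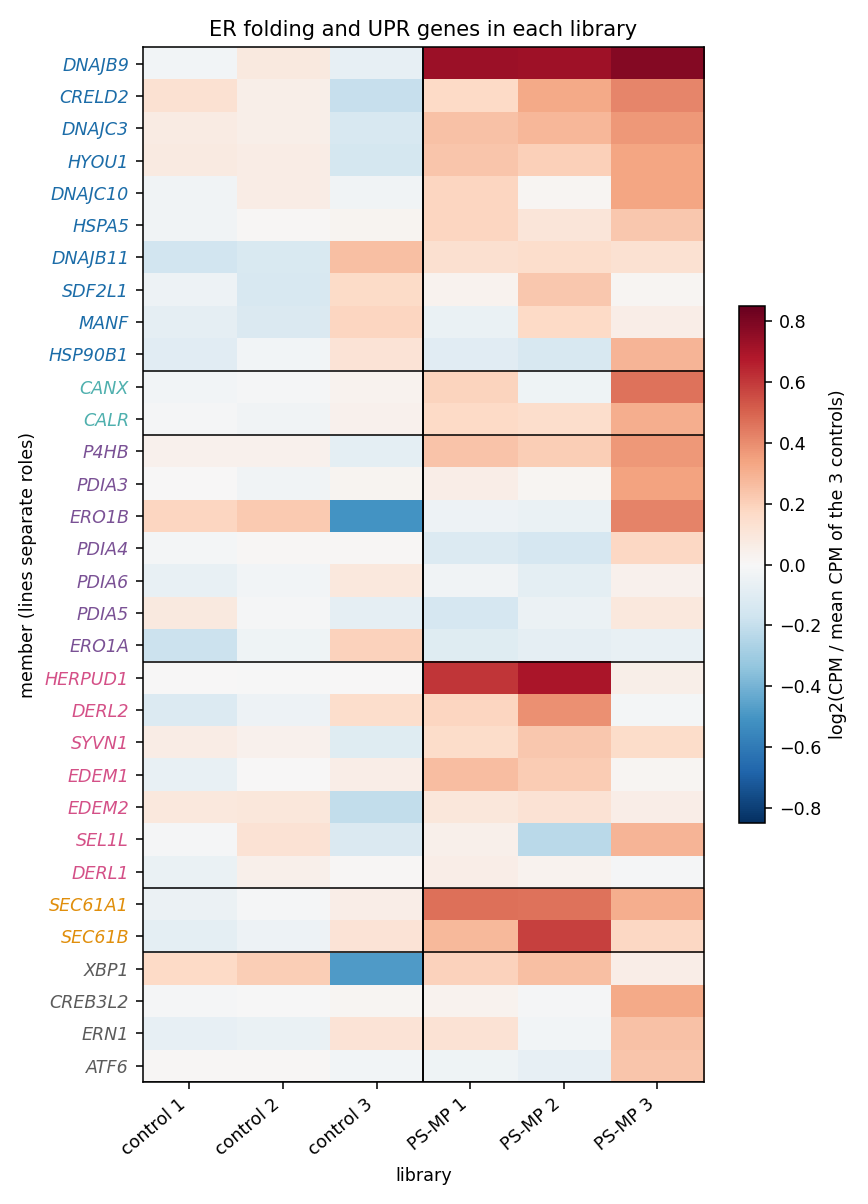
Each row is 1 of the 32 tested members and each column 1 library. The colour gives log2 of CPM over the mean of the 3 controls, red above and blue below, and horizontal lines separate the roles. DNAJB9 is red in all 3 PS-MP libraries and HERPUD1 in PS-MP replicates 1 and 2, while ERO1B and XBP1 are blue in control replicate 3.

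The members differ widely in abundance. Per kilobase of annotated exon (GENCODE release 29), the control means in CPM per kb were led by the lectin chaperone CALR at 250.4 ± 6.29 (SD, n = 3), followed by CANX at 199 ± 4.07, HSPA5 at 176 ± 3.54 and HSP90B1 at 170 ± 12.8. The last pair did not differ beyond their spread. PDIA4 (134 ± 1.34) and P4HB (131 ± 6.10) came next and likewise overlapped. The lowest tested members were SYVN1 (6.45 ± 0.397), ERO1B (5.59 ± 1.45) and the sensor gene ERN1 (2.20 ± 0.159). Together the 33 genes took 0.745 ± 0.0242% of all counts in the controls and 0.797 ± 0.0737% in PS-MP (n = 3 per group), a difference within the spread of the PS-MP libraries, which held 0.783%, 0.730% and 0.876%.

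Among the 10 chaperones and their partners, DNAJB9 was the only member that passed the test. DNAJB9 (ENSG00000128590, chromosome 7, 108569867 to 108574850, GRCh38) encodes ERdj4, a DnaJ co-chaperone of the ER that binds misfolded proteins and holds IRE1 in check, and it is a known target of spliced XBP1. Its level was 30.2, 32.5 and 29.3 CPM in control replicates 1, 2 and 3 and 50.8, 50.6 and 52.6 CPM in the PS-MP libraries. The groups are far apart and each is tight. DNAJB9 rose 1.67-fold (95% interval 1.44 to 1.95, log2 fold change 0.74 ± 0.10 SE, adjusted p = 0.000952, edgeR). The call held under all 15 alternative settings, with log2 fold changes from 0.68 to 0.79 and adjusted p from 3.82e-07 to 0.0152.

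HSPA5 (ENSG00000044574, chromosome 9, 125234853 to 125241382), which encodes BiP, the main Hsp70 of the ER and the protein that keeps all 3 sensors inactive, did not pass. It stood at 673, 692 and 700.2 CPM in the controls and at 780.1, 740.3 and 806 CPM in the PS-MP libraries. The groups do not overlap, but the difference was 1.13-fold (95% interval 0.975 to 1.30, adjusted p = 0.3, edgeR), so the interval leaves out a rise of 1.5-fold. Other members can be set against HSPA5 within each library, a ratio free of any scaling between libraries. This was done for 4 members chosen after the values were seen. There were 4.48, 4.70 and 4.18 DNAJB9 counts per 100 HSPA5 counts in the controls and 6.51, 6.83 and 6.53 in PS-MP. The lowest PS-MP ratio of DNAJB9 was above its highest control ratio. SEC61A1 had 27.8, 27.9 and 28.9 counts per 100 HSPA5 counts in the controls and 34.5, 36.1 and 29.8 in PS-MP, also without overlap. HERPUD1 had 9.52, 9.23 and 9.14 against 12.5, 14.0 and 8.23, so that PS-MP replicate 3 was below all controls. HYOU1 had 24.9, 23.9 and 20.4 against 24.0, 24.7 and 24.9, and its groups overlap.

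The other chaperones moved less than DNAJB9. HSP90B1, the ER Hsp90 (GRP94), had 747, 788 and 866 CPM in the controls and 750.2, 729 and 978 CPM in PS-MP. These groups overlap throughout (1.02-fold, interval 0.839 to 1.25, adjusted p = 0.906), and the sign of its log2 fold change of 0.03 turned under total-count scaling (−0.032). It also turned when control replicate 1 (−0.024), PS-MP replicate 3 (−0.11) or replicate 3 of both groups (−0.057) was left out. DNAJC3, the co-chaperone that also inhibits PERK, had a fold of 1.23 (interval 1.05 to 1.44, adjusted p = 0.103). HYOU1, the large Hsp70 relative that exchanges nucleotide on BiP, had 1.20 (1.02 to 1.40, adjusted p = 0.146). CRELD2, a secreted ER stress protein, had 1.24 (1.03 to 1.49, adjusted p = 0.148). In these 3 genes all PS-MP values lay above all control values, and none passed. The remaining chaperone genes, namely DNAJC10 (a disulfide reductase), DNAJB11 and SDF2L1 (co-chaperones of BiP) and the secreted stress protein MANF, had log2 fold changes of 0.18, 0.14, 0.10 and 0.06 and overlapping groups.

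Calreticulin and calnexin hold newly made glycoproteins until they are folded. CALR stood at 676, 664 and 698 CPM in the controls and 764, 753 and 840.1 CPM in PS-MP, without overlap (1.16-fold, interval 0.996 to 1.34, adjusted p = 0.219). CANX had 1222, 1236 and 1271 CPM in the controls and 1419, 1212 and 1715 CPM in PS-MP. Its highest value is that of PS-MP replicate 3 and its lowest that of PS-MP replicate 2 (1.17-fold, interval 0.955 to 1.42, adjusted p = 0.333).

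The 7 genes of oxidative folding, which make and rearrange disulfide bonds, centred on no difference, with a median log2 fold change of −0.02 and 0 calls. P4HB, which encodes protein disulfide isomerase itself and is also a subunit of collagen prolyl hydroxylase, stood apart from the others: 710.4, 712 and 655 CPM in the controls against 821, 799 and 892 CPM in PS-MP. Its groups do not overlap (1.21-fold, interval 1.04 to 1.41), yet it did not pass (adjusted p = 0.118). PDIA4, PDIA5 and PDIA6 had log2 fold changes of −0.02, −0.03 and −0.02 and PDIA3, the isomerase that works with calnexin and calreticulin, had 0.15. The signs of PDIA4, PDIA5 and PDIA6 turned when some libraries were left out. The oxidase ERO1A, which feeds oxidising power to the isomerases and is also a hypoxia target, had 136, 151 and 178 CPM in the controls and 144, 147 and 148 CPM in PS-MP (adjusted p = 0.713). Its relative ERO1B had 34.0, 34.9 and 21.0 CPM in the controls and 29.1, 28.8 and 40.2 CPM in PS-MP, so that replicate 3 was lowest in the controls and highest in PS-MP. Its log2 fold change of 0.13 (adjusted p = 0.742) became −0.075 when control replicate 3 was left out, −0.045 when PS-MP replicate 3 was, and −0.25 when both were (adjusted p = 0.038). ERO1B overlaps GPR137B on the other strand, which had 63.6% as many counts and was called higher (log2 fold change 0.74, adjusted p = 0.00616).

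**Figure D2:**
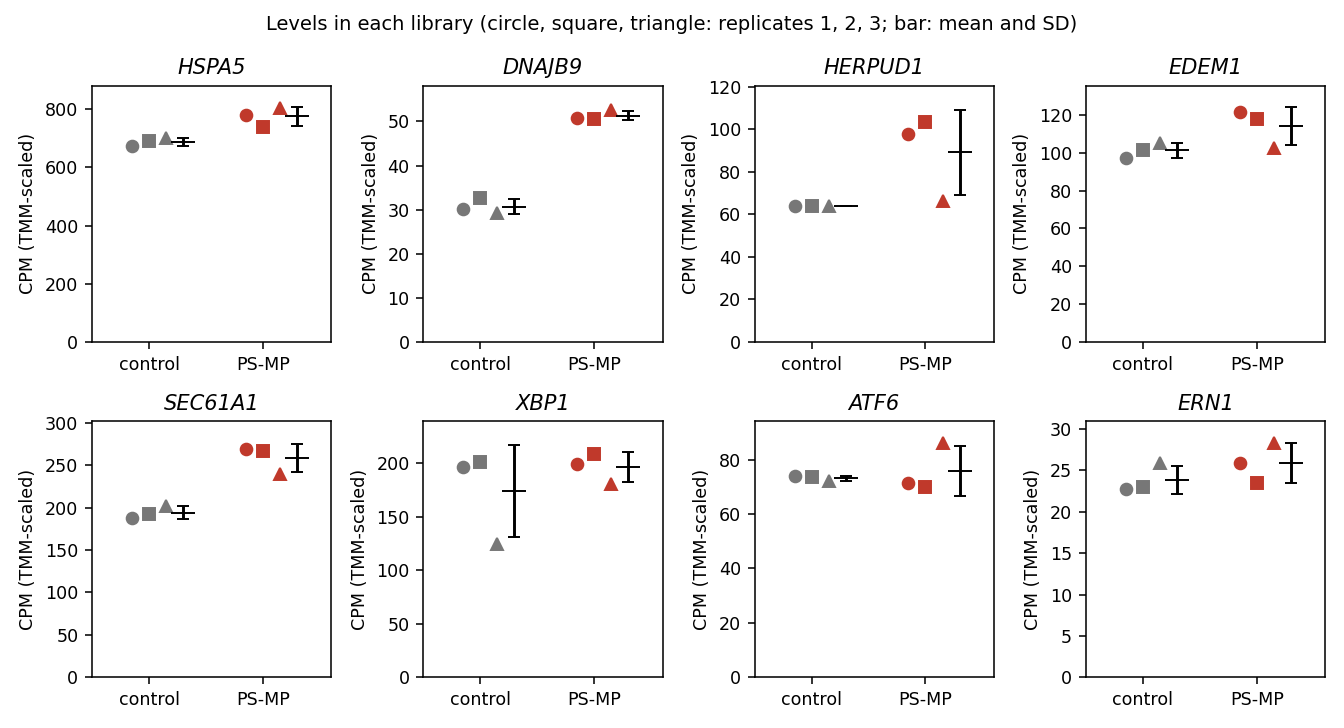
Levels of 8 members in TMM-scaled CPM, each axis starting at 0, with controls in grey, PS-MP in red, a different marker for each replicate and the mean ± SD beside the points. The groups of HSPA5, DNAJB9, HERPUD1 and SEC61A1 do not overlap, and in HERPUD1 the third PS-MP library sits just above the controls.

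In ERAD, 0 of the 7 tested genes passed, and HERPUD1 came nearest. HERPUD1 (ENSG00000051108, chromosome 16, 56932142 to 56944864) encodes HERP, a membrane protein that organises the ERAD ubiquitin ligase. It stood at 64.1, 63.8 and 64.0 CPM in the controls and at 97.7, 103.7 and 66.3 CPM in PS-MP. PS-MP replicates 1 and 2 lay far above the controls, and replicate 3 hardly above them. The fold was 1.39 (interval 1.11 to 1.75, adjusted p = 0.0748). Without PS-MP replicate 3 the log2 fold change went from 0.48 to 0.66 and was called (adjusted p = 0.00212), and HERPUD1 was also called without both replicate 3 libraries (adjusted p = 4.56e-05), with no filter on low counts (adjusted p = 0.00399) and by DESeq2 (adjusted p = 0.0418). Over its 15 settings the adjusted p ran from 4.56e-05 to 0.257.

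EDEM1, the lectin that hands misfolded glycoproteins to ERAD and a known XBP1 target, had 97.1, 101 and 105 CPM in the controls and 121, 118 and 103 CPM in PS-MP, again with replicate 3 lowest and here within the control range (1.12-fold, interval 0.963 to 1.31, adjusted p = 0.341). Its relative EDEM2 had a fold of 1.07. The ubiquitin ligase SYVN1 (HRD1) had 37.0, 36.4 and 32.9 CPM in the controls and 39.4, 41.5 and 39.6 CPM in PS-MP without overlap (1.13-fold, adjusted p = 0.308), and its adaptor SEL1L had 1.03-fold. The derlins form part of the channel through which substrates leave. DERL1 and DERL2 had folds of 1.02 and 1.14 (adjusted p = 0.892 and 0.387). DERL3 had 1 count in control replicate 3 and 0 in the other 5 libraries, below the floor of 3 counts, so no difference could be detected at this depth.

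Both subunit genes of the SEC61 translocon, the protein-conducting channel of the ER, had higher values in PS-MP, and SEC61A1 passed. SEC61A1 (ENSG00000058262, chromosome 3, 128051641 to 128071705), the channel-forming subunit, stood at 187, 193 and 202 CPM in the controls and 269, 267 and 239.9 CPM in PS-MP. It rose 1.33-fold (interval 1.15 to 1.54, log2 fold change 0.41 ± 0.10 SE, adjusted p = 0.0219, edgeR). Its groups do not overlap, but the adjusted p of SEC61A1 was 0.124 when control replicate 1 was left out, 0.0975 for control replicate 2, 0.107 for PS-MP replicate 1 and 0.0765 for PS-MP replicate 2. It was 0.055 with total counts as the only scaling and 0.101 with a replicate block. SEC61B, a small subunit, had 28.9, 29.8 and 33.3 CPM in the controls and 37.2, 45.8 and 34.7 CPM in PS-MP, also without overlap (1.28-fold, interval 1.05 to 1.55, adjusted p = 0.118). The SEC61A1 locus overlaps MGLL on the other strand, which had 51.2% as many counts and a log2 fold change of 0.32 (adjusted p = 0.103). The strand setting of the counting is not given in the sources used here, so reads of such partners cannot be told apart. Among the tested members 8 overlap a gene with at least 10% as many counts, namely SEC61A1, ERO1B, DNAJB11, CRELD2, PDIA5, SYVN1, DERL1 and DERL2. For SYVN1 the partner FAU had 648% as many counts, and only 1 of the 3 genes that overlap SYVN1 lies on the other strand. The DERL1 partner TBC1D31 was called lower (log2 fold change −0.53, adjusted p = 0.0328, edgeR). The PDIA5 partner SEC22A (19.1%) lies on the same strand, where a strand setting would not separate them.

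The sensor and transcription factor genes had log2 fold changes of 0.05 to 0.17, with 0 of 4 called. ATF6 stood at 73.8, 73.6 and 71.9 CPM in the controls and 71.3, 69.8 and 86.1 CPM in PS-MP, where replicates 1 and 2 were below the controls and replicate 3 above (1.04-fold, interval 0.878 to 1.22, adjusted p = 0.816). Its sign turned under total-count scaling, and when PS-MP replicate 3 or replicate 3 of both groups was left out. ERN1 had 22.7, 23.0 and 25.8 CPM in the controls and 26.0, 23.4 and 28.3 CPM in PS-MP (1.09-fold, adjusted p = 0.587). CREB3L2, an ATF6 relative of secretory cells, had 1.09-fold (adjusted p = 0.55). XBP1 had 196, 202 and 125 CPM in the controls and 199.9, 208 and 181 CPM in PS-MP. Control replicate 3 is far below the other 5 libraries, and without it the log2 fold change of 0.17 (adjusted p = 0.562) became −0.021 (adjusted p = 0.924).

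These are transcript levels, and both ATF6 and IRE1 act through steps that a gene count does not record. The unconventional splicing of XBP1 takes out 26 bases of the coding sequence and shifts the reading frame. In GENCODE release 29, XBP1-201 holds these bases and XBP1-207 lacks them. They are shown in capitals, with 15 bases on each side, to show how little separates the forms that the XBP1 count adds together. The flanks repeat, so the removed bases can be placed in 7 ways. The placement shown, in which the stretch follows CAG and ends in CAG, was picked by its letters and does not mark where IRE1 cuts.
XBP1 unspliced form: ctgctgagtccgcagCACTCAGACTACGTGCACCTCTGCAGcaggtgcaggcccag

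**Figure D3:**
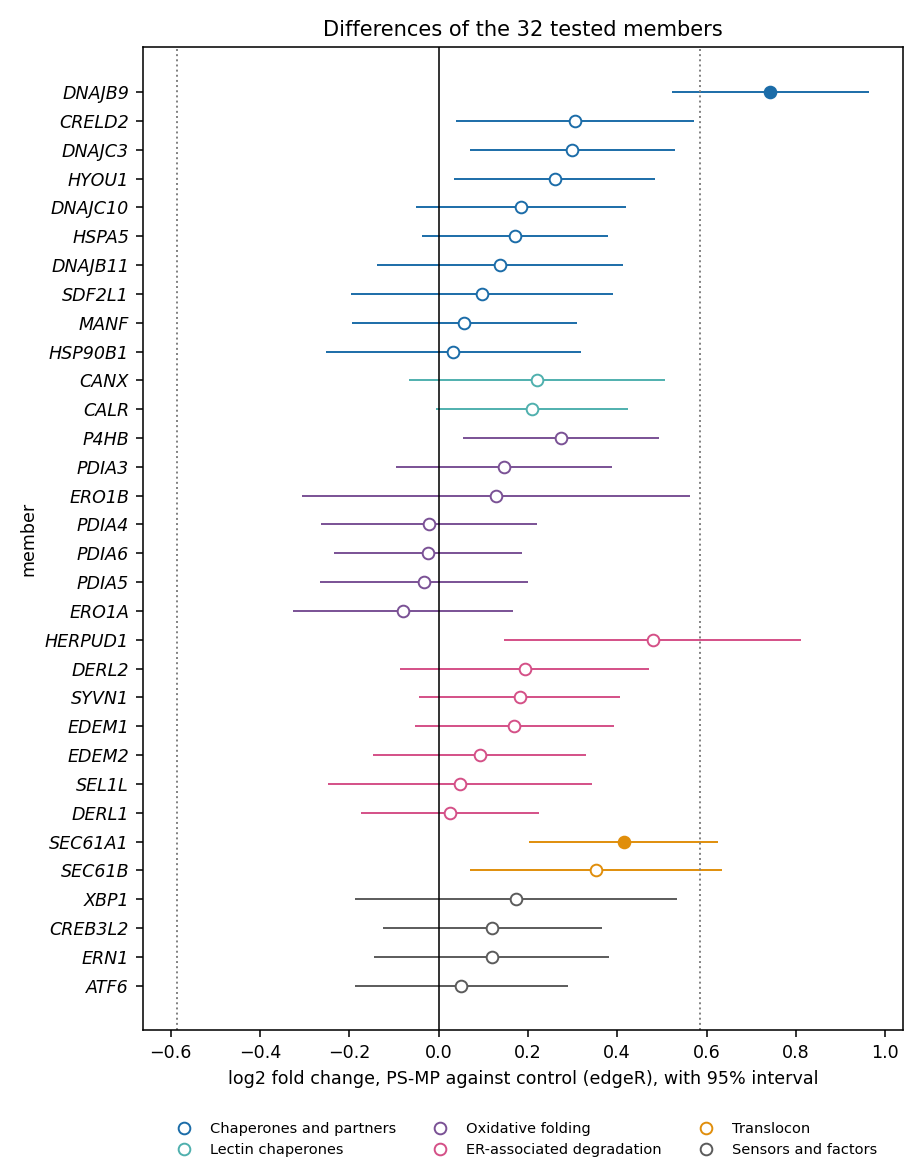
Points are log2 fold changes of PS-MP against control from edgeR with 95% intervals, coloured by role, and filled points are the 2 called members, DNAJB9 and SEC61A1. Dotted lines mark 1.5-fold, which the intervals of DNAJB9, HERPUD1, SEC61A1 and SEC61B cross.

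Some members hold promoter elements of the UPR, and 19 of the 30 members with a promoter window hold neither of the main forms. The members were chosen as genes of ER folding and the UPR, so their shares of such elements are not independent of that choice. ATF6 binds the ER stress response element (ERSE), spelled CCAAT, any 9 bases, CCACG, and a shorter form, ERSE-II, spelled ATTGG, any 1 base, CCACG, both with NF-Y at the CCAAT or ATTGG side. RefSeq promoter windows (GRCh38.p14, 250 bases before to 50 after each start) were found for 30 members and searched on both strands. ERSE was found in 8 of them (26.7%) and in 0.0916% of the 27305 genes with a window. ERSE-II was found in 3 (10%) and in 0.0696% of genes. The UPR element core TGACGTGG was found in 2 members, DNAJC10 and HYOU1 (6.67%, against 0.927% of genes), and in HYOU1 it overlaps an ERSE-II match. A match is a description of letters, not evidence of binding.

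Examples are shown in the orientation of the element, with the fixed letters in capitals and 10 bases on each side where the window allows. They were chosen to span abundant chaperones, XBP1 itself and the ERSE-II genes.
HSPA5 ERSE (chr9:125241391-125241409, gene on the minus strand): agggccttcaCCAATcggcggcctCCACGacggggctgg
HSP90B1 ERSE (chr12:103930216-103930234, gene on the plus strand): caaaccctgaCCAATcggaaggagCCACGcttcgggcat
CALR ERSE (chr19:12938384-12938402, gene on the plus strand): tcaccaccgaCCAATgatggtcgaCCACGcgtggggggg
XBP1 ERSE (chr22:28800603-28800621, gene on the minus strand): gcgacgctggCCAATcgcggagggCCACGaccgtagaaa
CRELD2 ERSE (chr22:49918554-49918572, gene on the plus strand): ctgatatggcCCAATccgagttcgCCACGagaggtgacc
HERPUD1 ERSE-II (chr16:56932025-56932035, gene on the plus strand): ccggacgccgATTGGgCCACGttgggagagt
HYOU1 ERSE-II (chr11:119057274-119057284, gene on the minus strand): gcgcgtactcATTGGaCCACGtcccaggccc
SDF2L1 ERSE-II (chr22:21642114-21642124, gene on the plus strand): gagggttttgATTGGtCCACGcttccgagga

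None of the 11 members with ERSE or ERSE-II was called. They were HSPA5, HSP90B1, CALR, CANX, PDIA6, CRELD2, XBP1, ERO1B, HYOU1, HERPUD1 and SDF2L1, with a median log2 fold change of 0.17 and a range of −0.02 to 0.48. The 19 members with a window and neither element held both called genes and had a median of 0.14. Outside the members, 33 genes have such an element. Of the 19 of these that were tested, 2 were called higher and 1 lower (median 0.07). Those called higher were SERP1 (log2 fold change 0.34, adjusted p = 0.0447), which encodes an ER stress protein associated with the translocon, and SYNPO (0.72, adjusted p = 0.00376), an actin-associated protein, and the other was SHCBP1 (−2.70, adjusted p = 0.000206), a gene of dividing cells. These were named after their values were seen.

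The whole windows of HSPA5 and DNAJB9 are given to compare the most abundant classical readout with the member that rose most. In HSPA5 (chr9:125241294-125241593, minus strand) capitals mark the 1 exact match to the ERSE letters given above. Near matches were not searched for. In DNAJB9 (chr7:108569624-108569923, plus strand) neither ERSE, ERSE-II nor the UPR element core was found, and capitals mark CCAAT and CCACG on either strand, the outer letters of the ERSE, which are found in 39.7% and 42.1% of genes. That says only that these letters are not in this window.
HSPA5 promoter: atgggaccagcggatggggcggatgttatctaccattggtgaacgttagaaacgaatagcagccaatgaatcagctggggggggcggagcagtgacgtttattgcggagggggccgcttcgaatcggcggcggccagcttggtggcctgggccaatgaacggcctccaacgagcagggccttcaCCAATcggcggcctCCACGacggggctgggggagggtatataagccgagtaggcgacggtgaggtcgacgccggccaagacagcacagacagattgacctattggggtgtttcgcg
DNAJB9 promoter: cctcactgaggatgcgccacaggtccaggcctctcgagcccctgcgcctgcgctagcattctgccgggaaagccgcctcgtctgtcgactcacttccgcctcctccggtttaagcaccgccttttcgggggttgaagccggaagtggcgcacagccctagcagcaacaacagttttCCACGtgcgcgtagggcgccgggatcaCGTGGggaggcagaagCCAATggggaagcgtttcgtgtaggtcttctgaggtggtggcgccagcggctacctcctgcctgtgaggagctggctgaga

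Sorted by the arm for which each gene is best known, an assignment that overlaps in practice, 0 of 14 ATF6-type genes were called (median log2 fold change 0.16). Of 13 tested XBP1-type genes 2 were called, DNAJB9 and SEC61A1 (15.4%, median 0.18). The share called among all tested genes was 9.56%, with 4.91% higher and 4.65% lower. The difference between the arms was not tested. Relative to the control mean, the ATF6-type genes had a median of 0.16, 0.16 and 0.26 on the log2 scale in the 3 PS-MP libraries and the XBP1-type genes 0.18, 0.22 and 0.18.

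The PERK branch was followed through a list of 20 ATF4-related genes, of which 3 rose and 0 fell (15%, median log2 fold change 0.35). Among all tested genes 4.91% were called higher and 4.65% lower. SESN2, a stress sensor that p53 also induces, was 2.28-fold higher (7.52, 6.94 and 8.37 CPM against 19.0, 17.9 and 15.3 CPM, adjusted p = 0.000577). NUPR1, a stress-induced chromatin protein, was 3.68-fold higher (10.2, 10.4 and 2.88 CPM against 31.4, 37.7 and 17.1 CPM, adjusted p = 0.0148), a call that NUPR1 lost when replicate 1 of the controls (0.0823) or replicate 1 or 2 of PS-MP (0.0647 and 0.0811) was left out and with no filter on low counts (0.311). CEBPB, a transcription factor, was 1.29-fold higher (adjusted p = 0.0302), a call lost in 7 of the 15 settings, among them each of replicates 1 and 2 of either group left out (0.0921 to 0.153). EIF2AK3, the sensor itself, had 17.0, 18.4 and 19.6 CPM in the controls and 23.0, 21.9 and 20.1 CPM in PS-MP (adjusted p = 0.262).

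ATF4 and DDIT3 had a library pattern close to that of HERPUD1. ATF4 stood at 337, 323 and 387 CPM in the controls and 431, 468 and 267 CPM in PS-MP, so that replicates 1 and 2 were above all controls and replicate 3 below them (adjusted p = 0.647). DDIT3, which encodes the pro-apoptotic factor CHOP, had 2.06, 2.19 and 2.97 CPM in the controls and 3.87, 4.09 and 2.22 CPM in PS-MP (adjusted p = 0.316). Without both replicate 3 libraries ATF4 (log2 fold change 0.44, adjusted p = 0.000855) and DDIT3 (0.90, adjusted p = 0.00778) were called. In that setting 13 of the 20 genes were called higher, where 26.6% of all tested genes were called, and 13.5% of all tested genes were called higher.

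Of the 11 lists of other ER genes, 10 of 164 tested genes rose and 0 fell (6.1%, median log2 fold change 0.14), near the members' own values. In all tested genes 9.56% were called in either direction, 4.91% as higher and 4.65% as lower. All 10 calls here were higher, so 4.91% is the like share. The PERK list held 3 of these 10. The others were TRAM1, SIL1, BBC3, QSOX1, OS9, MAGT1 and RCN1. TRAM1, a translocon-associated protein, was 1.65-fold higher (464, 493 and 386 CPM against 661, 617 and 934 CPM, adjusted p = 0.0178), a call lost when control replicate 1 (0.0526) or control replicate 3 (0.0753) was left out and with a replicate block (0.0814). SIL1, which exchanges nucleotide on BiP, was 1.43-fold higher (33.3 ± 2.18 against 47.7 ± 1.75 CPM, SD, n = 3, adjusted p = 0.00973 by edgeR), a call lost without control replicate 2 (0.0594) and with a replicate block (0.0599). BBC3, a pro-apoptotic gene that p53 induces, was 1.78-fold higher (adjusted p = 0.00838) and kept its call under all 15 settings. QSOX1 (a disulfide oxidase), OS9 (an ERAD lectin), MAGT1 (a subunit of the oligosaccharyltransferase) and RCN1 (a calcium-binding protein) were 1.27-fold to 1.30-fold higher, with adjusted p from 0.0284 to 0.0472. Each of these 4 lost its call in at least 7 of the 15 settings, among them leaving out any 1 of replicates 1 and 2 of either group (adjusted p from 0.0651 to 0.194). No gene passed among the 22 tested genes of ER export and retrieval (median 0.11), the 6 ER-phagy receptors (median 0.33) or the 7 prolyl isomerases (median 0.17). The ER-phagy receptor RETREG1, named after its values were seen, had a log2 fold change of 0.75 (adjusted p = 0.0519).

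**Figure D4:**
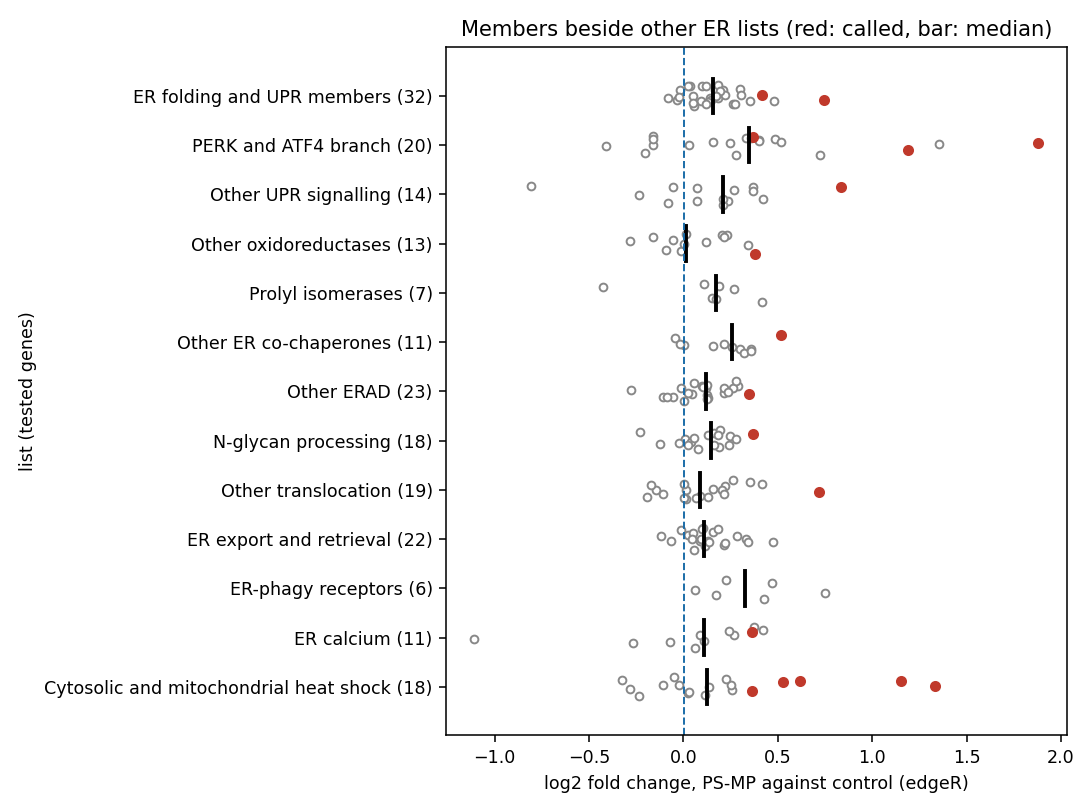
Each point is a tested gene, placed by its log2 fold change of PS-MP against control from edgeR, with called genes in red, the median of each list as a black bar and the median of all tested genes as a dashed line. Numbers in brackets are tested genes. The members spread less than the PERK and ATF4 list or the heat shock list.

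Cytosolic and mitochondrial heat shock genes, the chaperones of other compartments, were set beside the members. Of 18 tested, 5 rose and 0 fell (27.8%), where 4.91% of all tested genes were called higher and 4.65% lower. The median log2 fold change of the list, 0.12, was nevertheless not above that of the members (0.16). HSPB8, a small heat shock protein, was 2.22-fold higher (9.76, 10.9 and 8.55 CPM against 20.1, 22.2 and 22.8 CPM, adjusted p = 0.000456). SERPINH1, which encodes the collagen chaperone HSP47 and resides in the ER although it was listed here, was 1.53-fold higher (71.6, 71.5 and 62.2 CPM against 101, 102.4 and 111 CPM, adjusted p = 0.00346). DNAJB4 was 1.44-fold higher (adjusted p = 0.016), a call lost when replicate 1 or 2 of the controls (0.0848 and 0.0812) or replicate 1 of PS-MP (0.0928) was left out and with a replicate block (0.0731). The difference between the lists was not tested.

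Within PS-MP, replicate 3 had the highest value of the group for 20 of the 32 tested members and the lowest for 10. It lay above the control range for 22 members and below it for 0, while replicate 1 was above for 20 and below for 3, and replicate 2 above for 16 and below for 6. The roles differed in this. Relative to the control mean, on the log2 scale, the oxidative folding genes had a median of 0.18 in PS-MP replicate 3 and −0.03 and −0.05 in replicates 1 and 2. The pair of lectin genes had 0.39 in replicate 3 against 0.18 and 0.06, the chaperones 0.31 against 0.18 and 0.19, and the sensor genes 0.24 against 0.08 and −0.02. In the ERAD genes replicate 3 was lowest, with 0.05 against 0.16 and 0.22, as it was in the pair of translocon genes, with 0.24 against 0.37 and 0.52. The cause of the split between replicates was not tested.

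**Figure D5:**
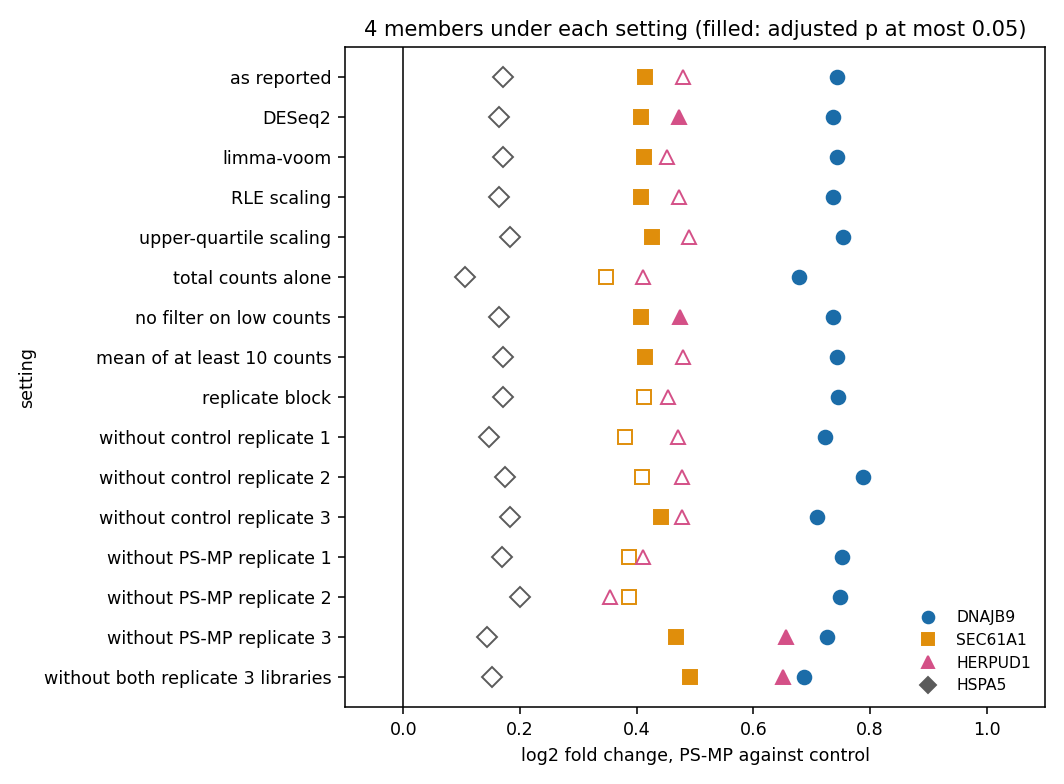
The log2 fold changes of DNAJB9, SEC61A1, HERPUD1 and HSPA5 are shown for the reported analysis and the 15 alternatives, filled where the adjusted p is at most 0.05. DNAJB9 is filled throughout, from 0.68 to 0.79, HSPA5 is open throughout, and the other 2 change with the libraries used.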

How the data were processed

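The deposited table holds the authors' raw counts of reads per gene (Ensembl IDs), in 1 column per library. Fastp, HISAT2, StringTie, RSEM, DESeq2 and GRCh38 are named in the submitters' processing notes without versions or roles, and the table itself carries the name of featureCounts. The library kit marks strand, but the strand setting of the counting and the annotation release are not given in the sources used here. edgeR 4.0.16 (R 4.3.3) was applied with filterByExpr, TMM scaling and a robust quasi-likelihood F test of PS-MP against control, two-sided, with Benjamini-Hochberg adjustment over 15458 genes at 0.05. Standard errors are the log2 fold change over the root of F, and 95% intervals follow from them. Floors cover counting error only. The procedure was tested on simulated counts with 200 changed genes. It recovered 37.3% of the 1.5-fold, 68.7% of the 2-fold and 98.5% of the 4-fold changes, and 7.48% of its calls were false. A gene that is not called may thus still differ by 1.5-fold, and in some cases by 2-fold. DESeq2 1.42.0, limma 3.58.1 and the other alternatives are described at the end. The members and lists were chosen with earlier results of these data known. Values per library are given for called members and for HSPA5, HSP90B1, DNAJB9, XBP1, ATF6, ERN1, HERPUD1 and EDEM1, and up to 3 called genes of each other list are named; other genes were chosen after their values were seen. Exon lengths came from GENCODE release 29, which holds 92.9% of the gene IDs, and promoters from RefSeq (GRCh38.p14).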

Additional observations from a re-analysis of the deposited data

How the results depend on the processing

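The 15 alternatives were DESeq2, limma-voom, scaling by RLE, by upper quartile or by total counts, leaving low counts unfiltered, a mean of at least 10 counts, a replicate block, leaving out any 1 library, and leaving out replicate 3 of both groups. The count of called genes, 1478, became 750 with the replicate block, 1700 with DESeq2 and 2005 with no filter on low counts. It was 4129 without replicate 3 of both groups, and ran from 771 to 1696 over the leave-one-out settings. The 2 members called higher became 1 with total counts alone and 1 with the replicate block. With DESeq2 and with no filter on low counts HERPUD1 was added to DNAJB9 and SEC61A1, which made 3. There were 7 without replicate 3 of both groups, and 1 to 3 over the leave-one-out settings. Members called lower were 0, except 1 (ERO1B) without replicate 3 of both groups. The cause was not tested. Whether the replicate numbers pair the libraries is not labelled. Same-numbered libraries deviated from their group means with correlations of −0.09, −0.11 and −0.18 over all tested genes. Over the tested members the correlations were −0.23, −0.27 and −0.21. With 3 libraries per group these values cannot decide whether the libraries are paired.

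Signs turned in 12 members that did not pass, and in ATF4. With total counts alone the log2 fold change was −0.032 for HSP90B1, −0.01001 for MANF, −0.014 for SEL1L, −0.0399 for DERL1 and −0.013 for ATF6. Without replicate 3 of both groups it was −0.057 for HSP90B1, 0.016 for ERO1A, −0.25 for ERO1B, −0.15 for SEL1L and −0.067 for ATF6. Over the leave-one-out settings it ran from −0.11 to 0.11 for HSP90B1, −0.0066 to 0.16 for MANF, −0.13 to 0.032 for PDIA4, −0.096 to 0.021 for PDIA5, −0.065 to 0.0198 for PDIA6, −0.17 to 0.027 for ERO1A, −0.075 to 0.25 for ERO1B, −0.0041 to 0.14 for EDEM2, −0.086 to 0.17 for SEL1L, −0.0096 to 0.047 for DERL1, −0.051 to 0.10 for ATF6, −0.021 to 0.29 for XBP1 and −0.0041 to 0.37 for ATF4. Depth limits DERL3, whose counts lie under the floor of 0.137 to 0.176 CPM.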
